A study of Mus musculus with 60 samples.

Results

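Genes of the HGF and EGF growth factor families were examined in mouse liver RNA after partial hepatectomy (PHx, surgical removal of most liver lobes) or after sham surgery. The set was chosen by gene symbol and holds 10 genes: the ligands Hgf, Tgfa, Areg and Hbegf, the HGF activating protease Hgfac, the receptors Met, Egfr, Erbb2 and Erbb3, and the receptor inhibitor Errfi1. Of these, 9 had a row in at least 1 of the deposited tables, and 8 were among the 14620 genes of the time course. Erbb2 was not analysed here. Hbegf was read from the 4 h tables and the 24 h PHx table, and Areg from the time course and the 4 h PHx table.

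All animals were male C57BL/6 mice of 8 weeks, and every group held 3 mice. After a morning operation, done between 8 and 9 o'clock, PHx and sham livers were taken at 4, 8, 12, 16, 20, 24, 28 and 32 h, which gives 48 libraries. After a night operation, done between 20 and 21 o'clock, PHx and sham livers were taken at 4 and 24 h. The morning livers of those 2 times served as the comparison, so that the study holds 60 libraries in 20 groups. At a given time after operation, hour of operation and hour of sampling change together and cannot be told apart. Within the morning course, time after operation and hour of the day run together as well.

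HGF is made in the liver mainly by stellate and endothelial cells, is secreted as an inactive chain that proteases such as the product of Hgfac cut into its active form, and signals to hepatocytes through the receptor tyrosine kinase MET. TGF-alpha, amphiregulin and HB-EGF are made as membrane precursors, are released by shedding, and bind EGFR, which is abundant on hepatocytes. ERBB3 has little kinase activity of its own and signals through its partners, while ERRFI1 binds active EGFR and blocks it. Both receptor systems are known for their part in the return of hepatocytes to the cell cycle after PHx.

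Time course values were on a linear scale of unstated unit, and differences were tested on log2(value + 1), PHx minus sham, with limma over 12957 genes. The words rose and fell are used where the Benjamini-Hochberg adjusted p is under 0.05. Of all genes tested, this call was reached by 46.9%, 24.7%, 16.2%, 13.7%, 18.4%, 12.3%, 20.5% and 15.4% at 4, 8, 12, 16, 20, 24, 28 and 32 h. Of the 8 members, 4, 3, 1, 2, 4, 2, 3 and 3 were called at those times, which is 2 higher and 2 lower at 4 h, 2 higher and 1 lower at 8 h, and 3 higher and 1 lower at 20 h. Areg, which is counted at 4, 8, 20 and 28 h, passed the filter on low values only through PHx libraries, so these counts support nothing. The median difference of all genes went through -0.32, -0.15, -0.01, 0.05, 0.13, 0.10, 0.13 and 0.14 over the 8 times, so that differences of single genes are to be read against it. After TMM scaling the medians lay between -0.02 and 0.01. The split of all calls at 4 h was 1208 higher and 4869 lower as deposited and 2782 higher and 2435 lower after TMM scaling. At 8 h it was 782 and 2424 as deposited and 1368 and 1507 after scaling, and at 20 h 1618 and 761 as deposited and 899 and 1137 after scaling. At 24 h it was 1191 and 403 against 703 and 712 after scaling, at 28 h 1935 and 724 against 990 and 1150, and at 32 h 1532 and 466 against 751 and 828. The library names form 4 series by time, and at 4 h the PHx and sham libraries come from different series, so that operation and series cannot be told apart there. The sham library numbered 1 at 4 h lists more genes at 0 than any other of the time course, and the libraries numbered 3 of the 4 h sham TPM table go against their labels in clock genes. For the members and list genes named as called at 4 h, differences without the sham library numbered 1 are given as well. The test between morning and night sham livers at 4 h is given with and without the libraries numbered 3. Summed values of 6 hepatocyte markers were 31700 to 79700 over the 48 libraries. In every PHx liver they were lower than in every sham liver at 8, 12, 20, 24 and 32 h. At 24 h they ranged from 31700 to 35700 in PHx livers against 40400 to 50000 in sham livers. The groups overlapped at 4, 16 and 28 h. The part of hepatocyte RNA in the values of liver-made genes such as Hgfac was not tested.

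**Figure D1:**
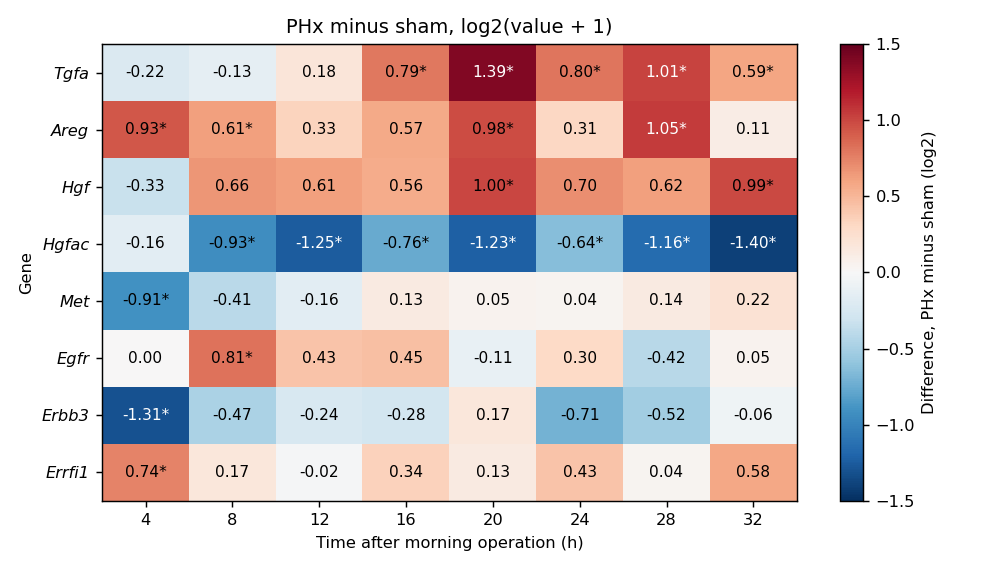
Difference of the group means, PHx minus sham, on the log2(value + 1) scale for 8 genes (rows) at 8 times after a morning operation (columns), from 3 livers per group. An asterisk marks an adjusted p under 0.05 in limma, which is no test for Areg. Tgfa is called higher from 16 h on, and Hgfac lower from 8 h on.

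Tgfa (chr6:86195223-86275719, plus strand, GRCm38), which encodes the EGFR ligand TGF-alpha, rose after PHx at 16, 20, 24, 28 and 32 h. At 4 h its values were 4.16, 3.84 and 3.93 in PHx livers, against 3.96, 5.32 and 5.22 in sham livers. The groups overlapped at that time and again at 8 and 12 h. At 16 h they were 6.33, 11.3 and 6.47 in PHx livers, against 4.16, 4.16 and 3.95 in sham livers. At 20 h the PHx livers had 11.1, 9.35 and 14.8, against 4.17, 3.64 and 3.62 in the sham livers. This was the largest difference of Tgfa, 1.39 ± 0.18 on the log2 scale (SE, limma adjusted p = 1.2e-06). Every PHx liver stood above every sham liver at each of the 5 later times. At 16 h the call was lost without the PHx library numbered 2 (0.54, adjusted p = 0.066). With only the 6 libraries of a time in the fit, the calls at 16 h (adjusted p = 0.11) and 28 h (adjusted p = 0.13) were lost.

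The Tgfa values were 8.99, 10.4 and 9.30 in PHx livers at 24 h, against 5.36, 4.66 and 5.21 in sham livers. At 28 h they were 12.3, 25.7 and 10.9 in PHx livers, against 6.94, 6.84 and 7.31 in sham livers. At 32 h the PHx livers had 12.4, 12.1 and 13.2, against 7.96, 8.30 and 7.79 in sham livers, a difference of 0.59 ± 0.18 (limma adjusted p = 0.026). This last call was lost after TMM scaling (0.41, adjusted p = 0.16) and without any of 5 single libraries (adjusted p = 0.054 to 0.08). In bulk tissue, fewer cells of a type and less RNA per cell cannot be told apart.

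Summed values of 10 Kupffer cell and macrophage markers were higher in every PHx liver than in every sham liver at the same 5 times. They ranged from 318 to 516 in PHx livers against 272 to 309 in sham livers at 16 h, from 474 to 702 against 315 to 437 at 20 h, and from 371 to 478 against 217 to 265 at 24 h. At 28 h they ranged from 817 to 910 in PHx livers against 447 to 541 in sham livers, and at 32 h from 858 to 907 against 474 to 721. Of the 10 markers, 1 or 2 rose at each of these times and 1 fell at 20 h. Of all genes, 7.31%, 12.5%, 9.19%, 14.9% and 11.8% rose at 16, 20, 24, 28 and 32 h. At 20 h 5.87% of all genes fell. Cholangiocyte markers summed to 58.0 to 68.3 in PHx livers at 20 h, against 22.4 to 38.4 in sham livers. The part of these cells in the Tgfa values was not tested.

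The PHx effect on Tgfa differed between the 8 times (limma F = 9.31, adjusted p = 2.7e-05), as it did for 43.5% of all genes tested. Over 8 to 20 h alone, which is 1 series of library names, F was 16.0 with an adjusted p of 0.0026. Sham livers varied over the 8 times too, from a mean of 3.81 ± 0.31 at 20 h to 8.02 ± 0.26 at 32 h (SD, n = 3; F = 5.66, adjusted p = 0.00094). That sham variation of Tgfa was not called within 8 to 20 h (adjusted p = 0.19), nor without replicate 1 (0.081) or replicate 3 (0.074).

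Areg (chr5:91139599-91148432, plus strand) encodes amphiregulin, another EGFR ligand. It was listed at 0 in 16 of 24 sham libraries and in 1 of 24 PHx libraries. Its highest value was 2.64 in PHx livers and 0.18 in sham livers. At 4 h Areg had values of 0.78, 1.12 and 0.82 in PHx livers and was listed at 0 in all 3 sham livers. At 8 h the PHx livers had 0.73, 0.75 and 0.47, against 0.18, 0.06 and 0 in the sham livers. At 20 h the values were 1.03, 0.87 and 1.57 in PHx livers and 0.13, 0.07 and 0.06 in sham livers. At 28 h they were 1.07, 2.64 and 0.19 in PHx livers, with all 3 sham livers at 0.

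The groups did not overlap at any time from 4 to 28 h, while at 32 h PHx livers had 0.20, 0.05 and 0 and sham livers 0. Differences of log2(value + 1) were 0.93, 0.61, 0.98 and 1.05 at 4, 8, 20 and 28 h, and 0.33, 0.57, 0.31 and 0.11 at 12, 16, 24 and 32 h. The gene passed the filter on low values only through PHx libraries, of which 6 had a value of 1 or more, so these differences are a description and no test of Areg is given. No fold is given either, since sham livers were at or near 0. Without the sham library numbered 1 the difference at 4 h was again 0.93.

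Errfi1 (chr4:150853919-150868892, plus strand), whose product inhibits EGFR, rose at 4 h. Its values were 410, 424 and 294 in PHx livers, against 176, 217 and 284 in sham livers, which do not overlap. The difference was 0.74 ± 0.26 (SE, limma adjusted p = 0.016). The call was lost without the sham library numbered 1 (0.58, adjusted p = 0.097) and without either of the PHx libraries numbered 1 and 2. It was also lost with only the libraries of 4 h in the fit (limma adjusted p = 0.059). After TMM scaling the difference was 1.24 (adjusted p = 0.00027). In the 4 h sham TPM values, morning sham livers held 399, 323 and 421 for Errfi1, which do not match these sham values. The unit of the time course is unstated, so they were not tested against PHx livers. The rise at 4 h thus rests on the time course sham values alone. From 8 to 32 h no difference of Errfi1 was called. Its group means lay between 266 ± 37.7 at 32 h and 376 ± 71.3 at 4 h in PHx livers, and between 191 ± 89.8 at 32 h and 310 ± 54.0 at 12 h in sham livers (SD, n = 3). Neither the PHx nor the sham groups of Errfi1 were called as varying over time (adjusted p = 0.77 in PHx and 0.11 in sham), although the PHx groups were after TMM scaling (adjusted p = 0.012) and the sham groups without replicate 3 (adjusted p = 0.013).

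In the time course, Areg and Errfi1 were higher in every PHx liver than in every sham liver at 4 h. The windows before their start sites also held the same pair of motifs. For these reasons, known beforehand, the 100 bases before their start sites are shown. They were taken from RefSeq promoter sequences of the build GRCm38.p6, on the plus strand, at chr5:91139499-91139598 for Areg and at chr4:150854970-150855069 for the downstream of the 2 Errfi1 starts. Capitals mark matches to the cyclic AMP response element TGACGTCA and to the TATA box TATAAA.
Areg: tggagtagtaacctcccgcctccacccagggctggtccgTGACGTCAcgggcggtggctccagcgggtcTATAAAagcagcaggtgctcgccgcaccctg
Errfi1: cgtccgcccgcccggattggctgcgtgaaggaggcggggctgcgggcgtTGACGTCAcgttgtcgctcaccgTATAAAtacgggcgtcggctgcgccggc
The response element began 61 bases before the start in Areg and 51 bases before it in Errfi1, and the TATA box 31 and 28 bases before it. Over 250 bases before the start, on both strands, 1.55% of 32851 promoters held TGACGTCA, 12.4% held TATAAA and 0.119% held both. The window of the upstream Errfi1 start held neither. These matches are letters in a window and carry no statement on binding. The 2 genes were picked after their matches were seen, so the shares of promoters support nothing. Other motifs were searched as well, and matches before Met and Hgfac are not shown.

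Hgf (chr5:16553495-16620152, plus strand), the MET ligand, rose at 20 and 32 h. At 20 h its values were 2.31, 4.48 and 2.87 in PHx livers, against 1.27, 1.18 and 0.77 in sham livers. The difference was 1.00 ± 0.26 (SE, limma adjusted p = 0.0065), and 0.80 without the PHx library numbered 2 (adjusted p = 0.052). At 32 h the PHx livers had 1.44, 1.82 and 3.02, against 0.73, 0.50 and 0.36 in the sham livers. That difference was 0.99 ± 0.26 (adjusted p = 0.0088), and 0.78 without the PHx library numbered 3 (adjusted p = 0.071). The groups overlapped at neither time.

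At the other times the Hgf difference was not called. At 4 h it was -0.33, and at 8, 12, 16, 24 and 28 h it lay between 0.56 and 0.70. At 8 h the values were 3.28, 1.73 and 2.51 in PHx livers, against 0.90, 1.20 and 1.49 in sham livers, and TMM scaling brought that difference past the call (0.80, adjusted p = 0.021). At 24 h the sham livers held 3.55, 1.28 and 1.22, and without the first of these the difference was 1.04 (adjusted p = 0.010). At 12 h Hgf passed without the PHx library numbered 3 (0.87, adjusted p = 0.039). At 28 h it passed without the sham library numbered 2 (0.89, adjusted p = 0.03) and with a pseudocount of 0.1 (1.21, adjusted p = 0.037). The difference of the PHx effect between times was not called for Hgf (F = 2.45, adjusted p = 0.076).

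Summed values of 10 stellate cell markers were 123, 204 and 95.8 in PHx livers at 20 h, against 185, 202 and 214 in sham livers. At 32 h they were 194, 200 and 244 in PHx livers and 223, 213 and 218 in sham livers. Of those markers, 2 fell at 20 h and none rose. Summed values of 10 sinusoidal endothelial markers were 99.4 to 117 in PHx livers and 124 to 143 in sham livers at 20 h, and 2 of them fell. At 32 h the endothelial sums were 180 to 182 in PHx livers and 186 to 195 in sham livers. Of all genes, 5.87% fell and 12.5% rose at 20 h. The part of these cells in the Hgf values was not tested.

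Hgfac (chr5:35041509-35048461, plus strand), the liver-made protease that activates HGF, fell at all 7 times from 8 to 32 h. At 4 h its values were 22.6, 32.9 and 34.0 in PHx livers, against 25.1, 32.6 and 43.3 in sham livers, with a difference of -0.16 ± 0.19 (SE, limma adjusted p = 0.53), and 0.33 after TMM scaling (adjusted p = 0.17). At 8 h the PHx livers had 30.5, 29.3 and 28.4, against 52.2, 58.8 and 60.6 in the sham livers. At 12 h the values were 29.2, 30 and 29.2 in PHx livers and 71.1, 54.4 and 94.0 in sham livers. At 32 h they were 28.1, 26.6 and 19.6 in PHx livers and 67.3, 71.3 and 60.1 in sham livers.

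No PHx liver reached the level of any sham liver of its time from 8 to 32 h. The differences of Hgfac ran from -0.64 ± 0.19 at 24 h (adjusted p = 0.023) to -1.40 ± 0.19 at 32 h (adjusted p = 4.2e-06). At 24 h the call was lost without the sham library numbered 1 or 3 or the PHx library numbered 1. It was also lost with only the libraries of 24 h in the fit (limma adjusted p = 0.055). The same libraries tested as counts gave -0.84 (edgeR adjusted p = 0.00068). Group means of PHx livers stayed between 20.6 ± 3.05 and 30.1 ± 3.97, while those of sham livers lay between 32.7 ± 5.07 at 24 h and 73.2 ± 19.8 at 12 h (SD, n = 3). Sham livers varied over time (F = 9.79, adjusted p = 1.3e-05), as did 50.7% of all genes tested. The variation in PHx livers was called as well (F = 2.76, adjusted p = 0.031), as it was for 71.5% of all genes. The PHx call was lost without replicate 1, 2 or 3 (adjusted p = 0.12, 0.079 and 0.13), and over 8 to 20 h alone neither the PHx variation (0.67) nor the sham variation (0.32) was called. The PHx effect differed between times (F = 4.61, adjusted p = 0.004), but not over 8 to 20 h alone (adjusted p = 0.41) nor without the 4 h groups (adjusted p = 0.12).

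**Figure D2:**
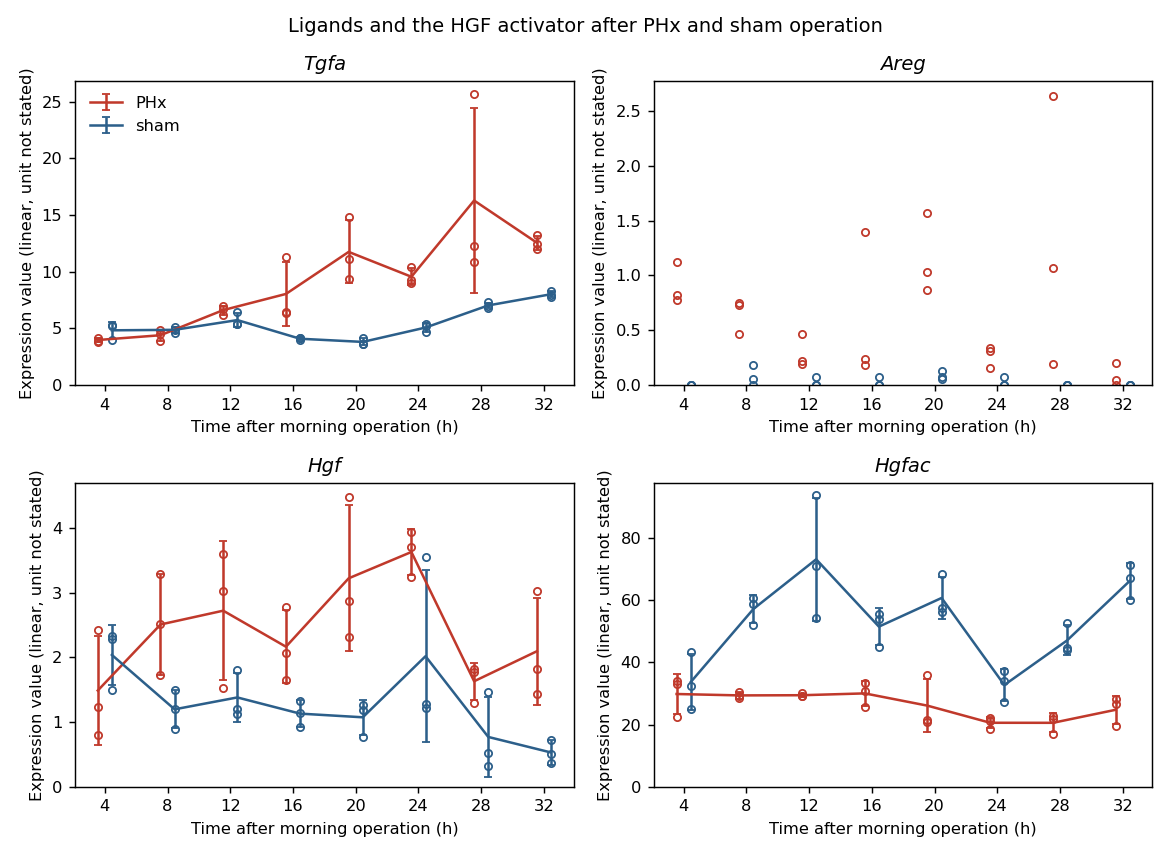
Linear expression values of Tgfa, Areg, Hgf and Hgfac (vertical axis) against hours after a morning operation, in PHx and sham livers. Circles are single livers and lines join group means with their SD (n = 3 per group), except for Areg, where circles alone are drawn. Tgfa in PHx livers separates from sham livers from 16 h on, and Hgfac stays between 17.1 and 35.8 in PHx livers while sham livers lie between 25.1 and 94.0.

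Met (chr6:17463800-17573980, plus strand), the HGF receptor, fell at 4 h and was called at no other time of the morning course. Its values were 7.27, 5.62 and 4.49 in PHx livers, against 22.4, 7.36 and 9.29 in sham livers. The sham library numbered 1, which holds the highest of these, also listed 3422 genes at 0, against at most 1414 in the other 47 libraries. The difference was -0.91 ± 0.22 (SE, limma adjusted p = 0.00084), -0.47 without that library (adjusted p = 0.035) and -0.48 after TMM scaling (adjusted p = 0.083). With the 6 libraries of 4 h alone the limma adjusted p was 0.16. In the 4 h sham TPM values, morning sham livers held 6.85, 3.58 and 5.49 for Met, unlike the time course sham values. The fall of Met thus rests on the time course sham values alone.

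At 8 h Met had 5.22, 5.66 and 5.55 in PHx livers, against 6.92, 7.66 and 8.29 in sham livers. These values did not overlap, and the difference of -0.41 ± 0.22 was not called (adjusted p = 0.19). From 12 to 32 h the differences lay between -0.16 and 0.22, and the groups overlapped at each time. Within PHx livers the lowest mean was 5.48 ± 0.23 at 8 h and the highest 9.78 ± 1.18 at 12 h (SD, n = 3), and over 8 to 20 h alone this variation was called (F = 10.5, adjusted p = 0.0046). Over all 8 times Met varied in PHx livers as deposited (adjusted p = 0.018) but the call was lost after TMM scaling (adjusted p = 0.16) and without replicate 2 (0.16) or 3 (0.43). The highest sham mean apart from 4 h was 11.04 ± 1.30, also at 12 h.

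Erbb3 (chr10:128567523-128589652, minus strand), the partner receptor of the EGF receptor family, fell at 4 h. Its values were 2.41, 5.46 and 3.55 in PHx livers, against 8.27, 9.99 and 14.2 in sham livers. The difference was -1.31 ± 0.25 (SE, limma adjusted p = 4.9e-05), and it was called without any 1 of the 6 libraries (-1.09 to -1.55), after TMM scaling (-0.91, adjusted p = 0.0047) and with the 6 libraries alone (adjusted p = 0.031). At 8 h the PHx livers had 8.5, 6.82 and 6.64, against 9.77, 9.87 and 11.8 in the sham livers, without overlap and without a call (adjusted p = 0.19). At 24 h they had 4.55, 6.81 and 7.65, against 8.83, 11.1 and 12.8 in sham livers. That difference of -0.71 ± 0.25 stood just outside the call (adjusted p = 0.057), and passed it after TMM scaling (-0.85, adjusted p = 0.027).

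At 12, 16, 20, 28 and 32 h the Erbb3 differences were -0.24, -0.28, 0.17, -0.52 and -0.06, and the groups overlapped. Its lowest mean in PHx livers was 3.81 ± 1.54 at 4 h and its highest 10.4 ± 1.41 at 32 h (SD, n = 3; F = 5.85, adjusted p = 0.00037), a call lost without replicate 1 (adjusted p = 0.062). The PHx effect differed between times (F = 3.27, adjusted p = 0.024), but not without the 4 h groups (adjusted p = 0.33) nor after TMM scaling (F = 1.73, adjusted p = 0.24).

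Egfr (chr11:16752203-16918158, plus strand), the receptor for TGF-alpha, amphiregulin and HB-EGF, rose at 8 h and was called at no other time. Its values were 104, 79.3 and 88.8 in PHx livers, against 55.6, 42.0 and 56.0 in sham livers. The groups did not overlap, and the difference was 0.81 ± 0.30 (SE, limma adjusted p = 0.043). Leaving out any 1 of the 6 libraries moved the adjusted p to between 0.056 and 0.16. At the other 7 times the differences lay between -0.42 and 0.45, and without the PHx library numbered 3 the one at 28 h was -0.84 (adjusted p = 0.044). Egfr varied over time in sham livers, from 38.5 ± 1.94 at 16 h to 85.1 ± 13.5 at 32 h (SD, n = 3; F = 3.59, adjusted p = 0.013). This call was lost without replicate 1 (adjusted p = 0.22), without replicate 3 (0.12) and over 8 to 20 h alone (0.46). Single sham livers at 28 h held 107, 44.9 and 102.

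**Figure D3:**
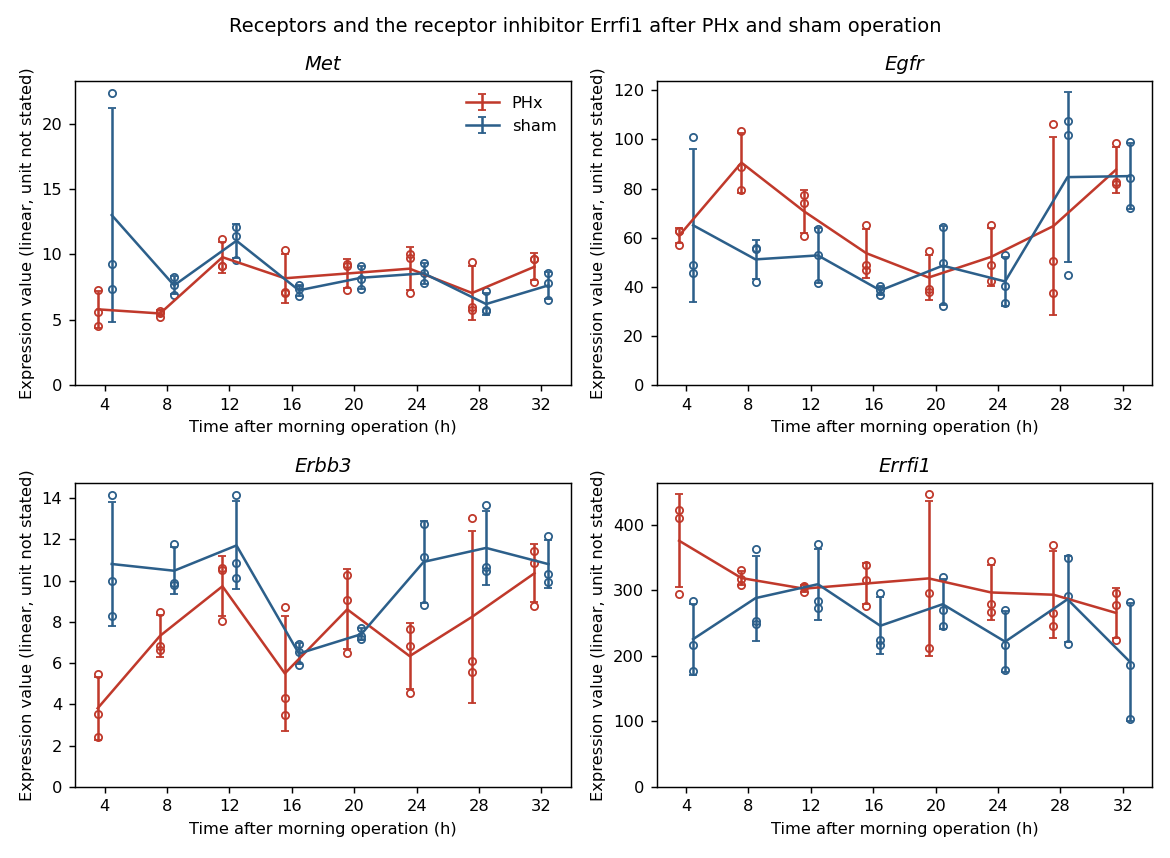
Linear expression values of Met, Egfr, Erbb3 and Errfi1 (vertical axis) against hours after a morning operation, in PHx and sham livers. Circles are single livers, and lines join group means with their SD (n = 3 per group). Met and Erbb3 are lower in PHx livers at 4 h, where 1 sham liver holds the highest Met value (22.4), and Egfr is higher in PHx livers at 8 h.

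Sums of marker genes moved with some of these results. At 4 h, 6 of 10 Kupffer cell and macrophage markers and 5 of 10 endothelial markers fell, while all 4 neutrophil markers tested rose. Of all genes, 37.6% were called lower and 9.32% higher at that time. The share of stellate markers that fell (40.0%) lies close to that background. Endothelial markers summed to 81.7 to 100 in PHx livers and to 142 to 150 in sham livers at 4 h. Of 10 stellate markers 4 fell, of 5 cholangiocyte markers tested 2 rose, of 6 hepatocyte markers 1 rose and 1 fell, of 7 acinar markers 2 rose, and no mesothelial marker was tested. Without the 4 h sham library numbered 1, 9 Kupffer, 6 endothelial and 3 stellate markers fell and 3 neutrophil markers rose. No cholangiocyte, hepatocyte or acinar marker was then called, while 35.6% of all genes fell and 7.17% rose. After TMM scaling, 3 Kupffer, 5 endothelial and 1 stellate marker fell. All 5 cholangiocyte, 4 of 6 hepatocyte, all 4 neutrophil, 3 of 7 acinar, 1 endothelial and 1 stellate marker rose. Of all genes, 18.8% fell and 21.5% rose after scaling. Pancreatic acinar markers summed to 5300 in the PHx liver numbered 3 at 4 h and to 1280 in the PHx liver numbered 3 at 16 h, and to at most 143 in any other library. Without the acinar-rich liver at 4 h, Met was at -0.77 (adjusted p = 0.011), and Erbb3 at -1.30 (adjusted p = 0.0004). At 28 h the PHx liver numbered 2 had the highest Tgfa, Areg and Erbb3 of its group, with 25.7, 2.64 and 13.0. Its cholangiocyte markers summed to 77.4, against 56.3 and 43.8 in the other PHx livers, and its neutrophil markers to 39.8, against 4.38 and 5.33. Its hepatocyte markers were the highest of the group as well, with 59800 against 37800 and 41400. Lowest of the group were its endothelial markers (109 against 165 and 173), stellate markers (122 against 176 and 213) and Kupffer markers (817 against 910 and 851). The part of these cell types in the results was not tested.

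The wider pathway was described with 6 lists that hold 71 further genes, of which 59 were tested in the time course. Of those, 12 rose and 23 fell at 4 h, where the share that fell (39.0%) was near that of all genes (37.6%). The share that rose at 4 h was 20.3%, against 9.32% of all genes. At 8 h 6 rose and 8 fell, while 6.04% of all genes rose and 18.7% fell. At 20 h 22 rose and 2 fell, while 12.5% of all genes rose and 5.87% fell. At 28 h 19 rose and 3 fell, while 14.9% of all genes rose and 5.59% fell. These list counts are as deposited, without TMM scaling. Without the 4 h sham library numbered 1, 8 rose and 22 fell at 4 h, and after TMM scaling 18 rose and 10 fell. At 12, 16, 24 and 32 h, 4, 7, 8 and 10 rose and 6, 2, 2 and 1 fell, as deposited. Of all genes, 7.57%, 7.31%, 9.19% and 11.8% rose and 8.63%, 6.35%, 3.11% and 3.6% fell at those times. Their median difference was -0.19 at 4 h, 0.48 at 20 h and 0.44 at 28 h, beside -0.32, 0.13 and 0.13 for all genes tested. Adaptors and signal relay genes fell in 11 of 16 and rose in 1 of 16 at 4 h. The number that fell was 9 without that library, where 35.6% of all genes fell, and 5 after TMM scaling, where 18.8% fell. Grb7, an adaptor that binds ERBB receptors, fell at 7 of 8 times, with 4.4 ± 0.81 in PHx livers against 23.7 ± 7.02 in sham livers at 4 h (SD, n = 3; -2.17, limma adjusted p = 3.4e-11).

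Among the receptors and co-receptors, Sdc1, a heparan sulfate proteoglycan of the hepatocyte surface, rose at all 8 times. It had 118 ± 23.4 in PHx livers against 35.7 ± 0.80 in sham livers at 28 h (1.67, adjusted p = 4.1e-09). Cd9, a tetraspanin that associates with HB-EGF precursor, rose at 5 times, with 20.5 ± 1.46 in PHx livers against 6.59 ± 1.87 in sham livers at 28 h (SD, n = 3). Among the proteases, Klkb1, which encodes plasma prekallikrein, fell at all 8 times. Its values were 8.68 ± 0.24 in PHx livers against 45.2 ± 0.49 in sham livers at 8 h (-2.25, adjusted p = 1.6e-10). Adam10, a sheddase of EGF family precursors, fell at 4 h and rose at 32 h, with 3.52 ± 0.24 in PHx livers against 10.1 ± 1.73 in sham livers at 4 h. Of the feedback genes, Socs4 and Lrig3 fell at 4 h alone among the 8 times, with 2.37 ± 0.34 in PHx livers against 8.63 ± 2.0 in sham livers for Socs4 (adjusted p = 3.8e-08) and 1.56 ± 0.38 in PHx livers against 4.11 ± 2.3 in sham livers for Lrig3 (adjusted p = 0.00052). Without the 4 h sham library numbered 1 the differences at 4 h were -2.34 for Grb7, -1.16 for Adam10, -1.33 for Socs4 and -0.57 for Lrig3, all called (adjusted p = 1.1e-10, 1.4e-06, 1.6e-06 and 0.019). In that fit they were 0.66 for Sdc1 and -0.95 for Klkb1, called as well (limma adjusted p = 0.003 and 0.00088).

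Of the other ligands, Nrg4, which encodes a neuregulin that binds ERBB4, rose at 4, 8 and 28 h. At 8 h it had 22.9 ± 9.04 in PHx livers, against 3.32 ± 2.14 in sham livers (2.51 ± 0.57 SE, adjusted p = 0.00093). Mst1, the ligand of the MET relative MST1R, fell at 4 and 12 h, with 34.3 ± 9.97 in PHx livers against 62.2 ± 16.0 in sham livers at 4 h (SD, n = 3; adjusted p = 0.00048). It was -0.66 without the sham library numbered 1 (adjusted p = 0.01) and TMM scaling ended the call (-0.37, adjusted p = 0.13). Of 9 genes known to follow ERK signalling, 4 rose and 1 fell at 4 h, and 5 rose and none fell at 20 h. Of all genes, 9.32% rose and 37.6% fell at 4 h, and 12.5% rose and 5.87% fell at 20 h. Without the 4 h sham library numbered 1, 1 rose and 1 fell at 4 h, while 7.17% of all genes rose and 35.6% fell. After TMM scaling 4 rose and 0 fell at 4 h, while 21.5% of all genes rose and 18.8% fell. Ccnd1, the gene of cyclin D1, rose at the 7 times from 8 to 32 h with 35.5 ± 9.29 in PHx livers against 4.02 ± 0.39 in sham livers at 24 h (2.83, adjusted p = 1.7e-08). Ets2, an ETS family transcription factor, rose at 4, 8, 20 and 32 h, with 20.6 ± 3.65 in PHx livers against 5.95 ± 1.38 in sham livers at 20 h (1.64, adjusted p = 0.00087). At 4 h its difference was 1.21, and 0.94 without the sham library numbered 1 (limma adjusted p = 0.043). For Nrg4 the 4 h difference was 2.28, and 2.06 without that library (limma adjusted p = 0.0089).

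After a night operation, the PHx effect was read at 24 h from read counts of 24.6 M to 30.2 M per library, with edgeR over 12056 genes. Of all genes tested, 23.2% were called, and of 7 members 5 were. Hgfac had 27.7, 31.7 and 30.3 CPM (counts scaled to library size) in PHx livers, against 82.4, 72.4 and 82.1 in sham livers (-1.40 ± 0.13 log2, SE, edgeR adjusted p = 7.9e-06). Tgfa had 33.2, 30 and 47.1 CPM in PHx livers, against 22.8, 20.1 and 20.3 in sham livers (0.80 ± 0.16, adjusted p = 0.0024). The Hgf values were 9.81, 9.29 and 12.5 in PHx livers and 6.06, 5.63 and 3.70 in sham livers (1.03 ± 0.30, adjusted p = 0.024). These 3 genes did not overlap between the groups, and the Hgf call was lost without the PHx or the sham library numbered 3 (adjusted p = 0.082 and 0.076).

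Erbb3 and Met were lower in the night PHx livers. Erbb3 had 28.8, 28.5 and 45.9 CPM in PHx livers, against 95.3, 103 and 53.3 in sham livers (-1.29 ± 0.28, edgeR adjusted p = 0.0038). The receptor gene Met had 51.7, 61.2 and 60.5 in PHx livers and 80.7, 96.9 and 88.0 in sham livers (-0.62 ± 0.14, adjusted p = 0.0057). Neither gene overlapped between the groups. Egfr, at -0.44 ± 0.45 (adjusted p = 0.53), and Errfi1, at -0.17 ± 0.18 (adjusted p = 0.54), were not called. Of 58 list genes tested, 8 rose and 6 fell, with a median of 0.09, while 11.9% of all genes rose and 11.3% fell. Among those that rose were Ccnd1 (2.63, adjusted p = 3.7e-05), Sdc1 (1.66, adjusted p = 1.7e-05) and Plxnb1, a semaphorin receptor that associates with MET (0.94, adjusted p = 0.0011). Among those that fell were Klkb1 (-1.48, adjusted p = 0.00025), Grb7 (-1.0, adjusted p = 0.00078) and Gab1, the docking adaptor of MET (-0.9, adjusted p = 0.008).

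After a morning operation the counts of the same time gave -0.84 for Hgfac (edgeR adjusted p = 0.00068), 0.79 for Tgfa (0.0052), 0.61 for Hgf (0.23), -0.82 for Erbb3 (0.067) and -0.18 for Met (0.47), with adjusted p in parentheses. Whether these effects differ between morning and night operation, with their different hours of sampling, was tested as an interaction. None of the 7 members was called, against 0.489% of all genes. The largest member differences, morning minus night, were 0.75 for Egfr (approximate 95% interval -0.49 to 1.99) and 0.56 for Hgfac (0.21 to 0.91, adjusted p = 0.24). For Met the difference was 0.43 (0.04 to 0.82, adjusted p = 0.48) and for Tgfa -0.02 (-0.46 to 0.43).

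**Figure D4:**
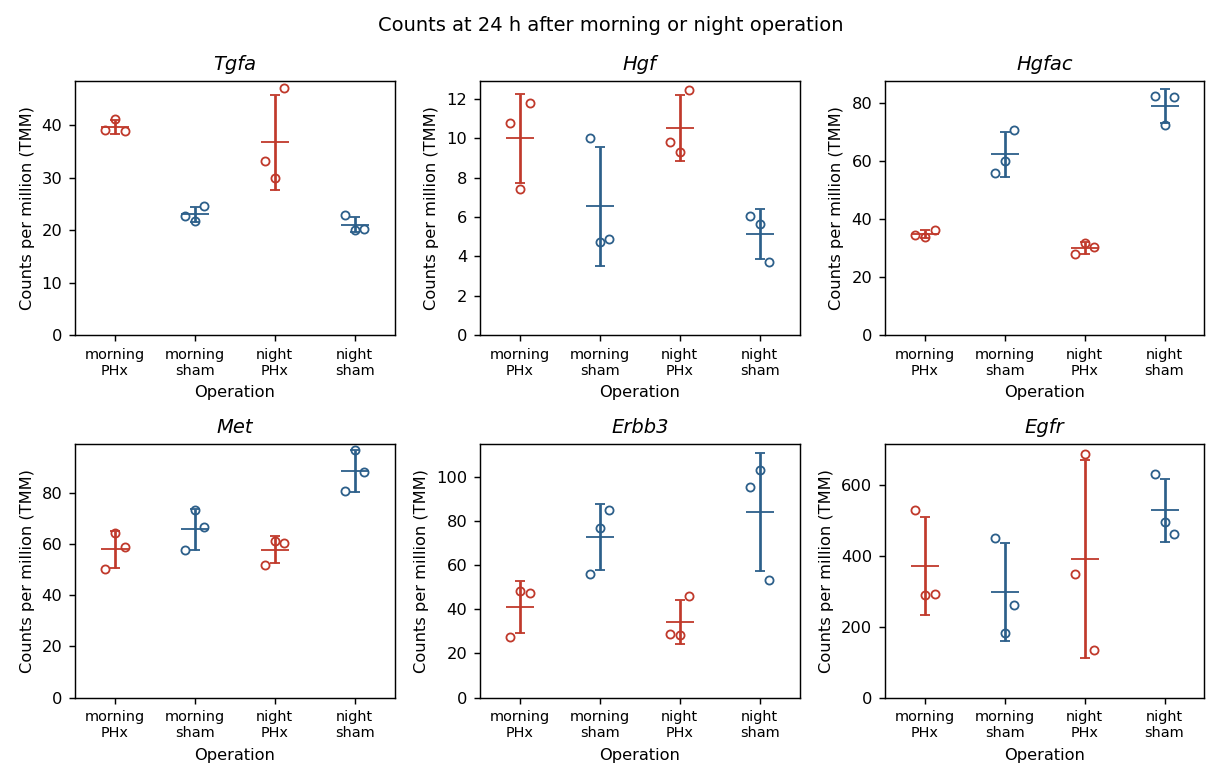
CPM at 24 h (counts scaled to library size with TMM, vertical axis) for 6 genes in livers after morning PHx, morning sham, night PHx and night sham operation. Circles are single livers, and horizontal bars with whiskers are the mean and SD (n = 3 per group). Hgfac is lower and Tgfa higher in PHx livers after either hour of operation, and Met is lower in night PHx livers than in night sham livers.

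Morning and night livers of 1 operation were also set side by side. In PHx livers at 4 h, 0.555% of all genes were called in limma on TMM-scaled values, and none of 9 members. Met came nearest, with 6.59, 5.88 and 4.94 after morning PHx, against 9.78, 10.1 and 10.1 after night PHx, without overlap (-0.78 ± 0.14 SE, adjusted p = 0.071). It passed in edgeR on the read counts recovered from that table, by a small margin (adjusted p = 0.049), and with the signal as deposited (-1.0, limma adjusted p = 0.022). The deposited signal is not scaled to depth, and it summed to 0.457 M to 0.5 M in morning and 0.507 M to 0.58 M in night libraries. Depth and level cannot be told apart in that last difference. Hbegf, the gene of the EGFR ligand HB-EGF, had 5.34, 0.892 and 1.34 after morning PHx and 0.389, 0.532 and 0.493 after night PHx. The groups did not overlap, and the difference of 1.80 ± 0.56 was not called (adjusted p = 0.23). Without the highest of these livers it was 1.08. Erbb3 had 2.74, 5.96 and 4.05 after morning PHx and 8.39, 8.75 and 4.77 after night PHx (-0.79 ± 0.32, adjusted p = 0.38).

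In PHx livers at 24 h, 0.332% of all genes and none of 8 members were called by edgeR, and the member differences lay between -0.08 and 0.49. Hbegf had 77, 49 and 39 reads after morning PHx and 37, 30 and 63 reads after night PHx. In sham livers at 24 h, 5.35% of all genes and none of 7 members were called. The nearest was Egfr, with 452, 183 and 260 CPM after morning sham and 631, 495 and 461 after night sham, without overlap (-0.81 ± 0.28 SE, adjusted p = 0.14). Replicate numbers went together in these 6 libraries, and with the number as a block Egfr was called (-0.90, adjusted p = 0.018), as it was in DESeq2 (-0.80, adjusted p = 0.027). Of the list genes, Nrg4 was lower after morning than after night sham (-3.36 ± 0.27, edgeR adjusted p = 5.9e-05). Its PHx effect differed between morning and night operation (2.34 ± 0.40, edgeR adjusted p = 0.018).

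In sham livers at 4 h, limma on log2(TPM + 1) called 0.0% of 11391 genes, with 667 genes at an unadjusted p under 0.05, and none of 8 members. In this table the libraries numbered 3 went against their labels in clock genes. Npas2 had 4.30, 1.53 and 0.0463 TPM after morning sham and 0, 0 and 3.11 TPM after night sham. Without both libraries numbered 3, limma called 48 genes and again no member. The largest member difference was that of Errfi1, with 399, 323 and 421 TPM after morning sham against 272, 140 and 251 TPM after night sham (0.83 ± 0.25 SE, adjusted p = 0.84, and 0.87 with an adjusted p of 0.29 without both libraries).

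TPM is scaled to gene length, so this table also gives the order of levels between members. The order was the same after either hour of operation. Errfi1 averaged 381 ± 51.2 TPM after morning sham and 221 ± 70.8 TPM after night sham (SD, n = 3 each). Egfr averaged 102 ± 40.7 TPM after morning sham and 88.4 ± 29.3 TPM after night sham. Hgfac averaged 50.2 ± 5.30 TPM after morning sham and 43.5 ± 12.6 TPM after night sham. Erbb3 averaged 17.6 ± 4.23 TPM after morning sham and 11.7 ± 2.55 TPM after night sham. Tgfa averaged 7.41 ± 0.23 TPM after morning sham and 7.57 ± 0.55 TPM after night sham. Met averaged 5.31 ± 1.64 TPM after morning sham and 6.82 ± 1.06 TPM after night sham. Hgf averaged 2.93 ± 0.28 TPM after morning sham and 2.45 ± 0.94 TPM after night sham. Hbegf averaged 1.27 ± 0.39 TPM after morning sham and 0.893 ± 0.41 TPM after night sham. Single livers of neighbours in this order overlapped in night sham livers for Egfr with Hgfac and for Tgfa with Met. In morning sham livers no neighbours overlapped. The TPM values of morning sham livers do not match the time course values of the same group, for instance 6.85, 3.58 and 5.49 TPM for Met, and the columns were therefore used by group alone.

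For each member the genes with the most similar profile were sought among 8762 genes, by Pearson correlation over the 16 group means of the time course. These means share libraries, depth and the series of library names, so the coefficients are a description. The nearest genes were Actr1b for Tgfa (r = 0.949), Enc1 for Areg (0.946), Sardh for Hgfac (0.943) and Arf2 for Hgf (0.932). For the receptors and their inhibitor they were Ing4 for Erbb3 (0.928), Nectin3 for Met (0.877), Clcn7 for Egfr (0.872) and Snhg15 for Errfi1 (0.868).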

How the data were processed

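Liver RNA was sequenced from 60 mice, 3 per group. The submitters' processing notes name fastp 0.20.0, HISAT2 2.1.0 and the builds mm8 and mm9; the read counter is not given in the sources used here. Time course values were deposited as log2(value + 1) of a linear value, and no unit is named per the file headers. The 24 h tables were deposited as raw counts. Values of 4 h sham livers are TPM per the file headers. Those of 4 h PHx livers carry the same header, but the deposited signal proved to be reads multiplied by 1 factor per gene, without scaling to depth (100% of values were whole within 0.01 after division by the constants of the 24 h tables, for 11724 of 11840 genes). In the 4 h tables the column headers give the groups.

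For the time course, limma 3.58.1 in R 4.3.3 was used with a trend and 1 mean per group over 48 libraries, after a filter that kept genes reaching a value of 1 in 3 libraries or more. At 24 h the quasi-likelihood test of edgeR 4.0.16 was run after filterByExpr and TMM. TPM was tested with limma on log2(TPM + 1), and the 4 h PHx signal with limma on log2(TMM-scaled value + 0.1), where 0.1 in 3 libraries was the filter. Recovered reads in that table numbered 24.9 M to 30.6 M per library, and edgeR on them called 1 of 8 members with such reads. P-values are two-sided and Benjamini-Hochberg adjusted over all genes of a comparison. DESeq2 1.42.0, other scalings, pseudocounts, filters and left-out libraries were alternatives. The tests were checked on simulated data. Depth of the time course is unknown, and 6 columns of no labelled sample were not used. Same-numbered sham libraries at 24 h deviated together (correlations 0.306, 0.119 and 0.429). Between PHx and sham libraries of the morning course, weaker positive correlations stood at every number at 16, 24 and 28 h (0.018 to 0.139). The highest outside the 24 h sham libraries was 0.211, for number 2 at 20 h.

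The 10 genes, the 6 pathway lists and the 8 marker lists were chosen with earlier results of these data known. Named list genes are the 2 with the smallest adjusted p of each list over the 8 times and, at 24 h, called list genes with the smallest adjusted p. Of these, 1 gene is not reported here. Promoter windows came from RefSeq (GRCm38.p6). Plots used Python 3.11.15 with matplotlib 3.10.9.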

Additional observations from a re-analysis of the deposited data

Results flagged for a closer look

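The PHx effect differed between the 8 times in 4 of 8 members, by a limma F-test of the interaction. For Tgfa F was 9.31 (adjusted p = 2.7e-05). For Hgfac F was 4.61 (adjusted p = 0.004), for Erbb3 it was 3.27 (adjusted p = 0.024) and for Met 3.01 (adjusted p = 0.035). Of all genes tested, 43.5% were called in the same test. The times come from 4 series of library names, and over 8 to 20 h alone, which is 1 series, the test called Tgfa (F = 16.0, adjusted p = 0.0026) and not Hgfac (0.41), Erbb3 (0.44) or Met (0.18), with adjusted p in parentheses. After TMM scaling the calls of Met (F = 0.647, adjusted p = 0.78) and Erbb3 (F = 1.73, adjusted p = 0.24) were lost. Met was also lost without the 4 h groups (adjusted p = 0.23), without the 4 h sham library numbered 1 (F = 2.4, adjusted p = 0.082) and without replicate 1, 2 or 3 (adjusted p = 0.063, 0.089 and 0.39). Hgfac was lost without the 4 h groups (0.12) and without replicate 1 (0.074) or 3 (0.087), and Erbb3 without the 4 h groups (0.33) and without replicate 1 (0.16) or 3 (0.53).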

How the results depend on the processing

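With only the libraries of a comparison in the fit, the members called at 4, 8, 16, 24 and 28 h numbered 2, 5, 1, 1 and 1, against 4, 3, 2, 2 and 3 with all 48 libraries. Of all genes, those fits called 3134, 3777, 803, 925 and 540 at these times, against 6077, 3206, 1770, 1594 and 2659. A pseudocount of 0.1 called 2 members at 12 h, against 1, and the added member was Areg, for which no test is given. The PHx effect varied over time in 1 member without the 4 h groups and in 1 over 8 to 20 h alone, against 4. TMM scaling also gave 4, but other members. Met (limma adjusted p = 0.78) and Erbb3 (0.24) were lost, and Egfr (0.049) and Areg were gained. Areg passed the filter on low values only through PHx libraries, so member counts that hold it support nothing. Over 8 to 20 h alone, 0 members varied in sham livers, against 5, and 4 in PHx livers, against 7. Of all genes, the same fits called 898 in sham livers, against 6574, and 2584 in PHx livers, against 9264. The PHx effect varied in 1166 genes there, against 5638. The member counts thus fell along with those of all genes. Those fits over 8 to 20 h, the ones without the 4 h sham library numbered 1, the ones without both 4 h sham libraries numbered 3, and the 4 h list counts under other settings were chosen after seeing the data. Between morning and night PHx livers at 4 h, 1 member was called with the signal as deposited, which is not scaled to depth, and 1 by edgeR on recovered reads, against 0. Between morning and night sham livers at 24 h, DESeq2 called 1 member and the replicate block called 1, against 0.

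Leaving out 1 library at a time gave 3 to 4 members called at 4, 20 and 28 h, 1 to 2 at 8 and 12 h, 1 to 3 at 16, 24 and 32 h, 4 to 5 in night livers at 24 h and 0 to 1 between morning and night sham livers at 24 h. Without 1 replicate number throughout, the PHx effect varied in 1 to 3 members, the sham level in 1 to 4 and the PHx level in 2 to 4. Outside the 24 h sham comparison, same-numbered libraries correlated at 0.211 or less. In those other comparisons the replicate block left the count of members within 1.5 times. Over all genes, the calls at 4 h ranged from 3134 to 6340 and at 28 h from 540 to 2684. No called member changed direction. The cause of these changes was not tested. Depth is unknown for the time course, and Areg is close to 0 there. Areg is among the members counted for the time course, so those counts support nothing.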

Other observations

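Nrg4, a ligand of ERBB4 outside the 10 genes, had PHx group means from 3.94 at 24 h to 22.9 at 8 h in the time course, and sham group means from 1.32 at 24 h to 16.2 at 16 h. In the count tables of 24 h its PHx effect was -0.99 ± 0.27 after night operation (SE, edgeR adjusted p = 0.017).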
